A study of Bos taurus with 5 samples.

Results

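GPX3 and CRYAB are a pair of stress-protection genes that were measured in follicle walls of the bovine ovary, from the largest follicle of a cow (F1) and from the next in size (F2). GPX3 mRNA was 11.5-fold higher in F1 than in F2, and CRYAB mRNA was 25.7-fold higher in F2 than in F1. The genes were picked by their accessions, NM_174077 for GPX3 and NM_174290 for CRYAB, because of these very differences. They are 2 of the 1364 genes on the array that could be given a symbol, and each had 1 of the 10163 single-spot probes. Their difference between F1 and F2 is therefore a description, without a test.

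The array samples were 3 F1 and 2 F2, each follicle on its own one-color array. All came from Japanese Black cows that were pregnant, with no treatment named, and pregnancy is thus shared by both groups; the age of the cows is not given in the sources used here. The stroma and theca externa had been cut away, so that the RNA was that of granulosa cells together with theca interna. At least 1 F2 shared a cow with an F1, but the labels do not tie follicles to cows, and the follicles were treated as independent. In such RNA of a whole wall, fewer cells of a type and less RNA per cell cannot be told apart. Size rank within a cow is the only thing that defined F1 and F2, and the stage of growth or regression of each follicle is not part of the labels.

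GPX3 encodes a glutathione peroxidase that is secreted from cells and carries selenium in its active site. It reduces hydrogen peroxide and lipid hydroperoxides outside the cell, with glutathione or thioredoxin as the source of electrons, and it is best known as the peroxidase that the kidney releases into plasma. CRYAB encodes alpha-crystallin B, a small heat shock protein. It holds unfolding proteins in solution without using ATP, is abundant in the lens, heart and skeletal muscle, and binds to intermediate filaments. The first protein thus deals with peroxides and the second with damaged proteins.

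Each gene was read by a single spot per array that carried a 60-base probe. The first 30 bases of each probe are given, 5′ to 3′ as deposited, because every value of both genes rests on these oligonucleotides; no base is singled out by capitals.
GPX3 probe: ctaccggctggcatctcttactgcctccaa
CRYAB probe: aaagttccccaccagtgaatgaaaaccttg
The whole GPX3 probe had a GC content of 55.0% and the CRYAB probe 43.3%, which was also the median of all 10163 probes. The longest run of bases that either probe shared with any other probe of the array, on either strand, was 14 bases. Where the probes lie in the transcripts was not analysed here, nor were proteins and promoters. In the RefSeq gene order of the cow, GPX3 lies between ZNF300 and TNIP1, and CRYAB between CFAP68 and HSPB2, itself a small heat shock protein gene. None of these 4 neighbours was matched to a probe by accession.

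Signals are given relative to the median of the 100 GAPDH spots of the same array, so that 1 is the level of a GAPDH spot. The GPX3 signal was 1.39, 0.916 and 0.833 for replicates 1, 2 and 3 of F1, whereas replicates 1 and 2 of F2 had 0.0680 and 0.115. The F1 and F2 did not overlap, and the lowest F1 was 7.25-fold above the highest F2. The mean was 1.05 ± 0.299 (SD, n = 3) in F1 and 0.0914 ± 0.0331 (SD, n = 2) in F2. On the log2 scale the difference, F1 minus F2, was 3.53 with a standard error of 0.38.

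The CRYAB signal was 0.0541, 0.0431 and 0.0383 for replicates 1, 2 and 3 of F1, whereas replicates 1 and 2 of F2 had 1.23 and 1.07. Again the groups did not overlap, with the lowest F2 at 19.8-fold the highest F1. The mean was 0.0452 ± 0.00807 (SD, n = 3) in F1 and 1.15 ± 0.116 (SD, n = 2) in F2. The log2 difference, F1 minus F2, was -4.68 with a standard error of 0.29. The study had listed both genes because of a large fold difference between at least a pair of follicles. The highest follicle was 20.4-fold above the lowest for GPX3 and 32.2-fold for CRYAB.

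**Figure D1:**
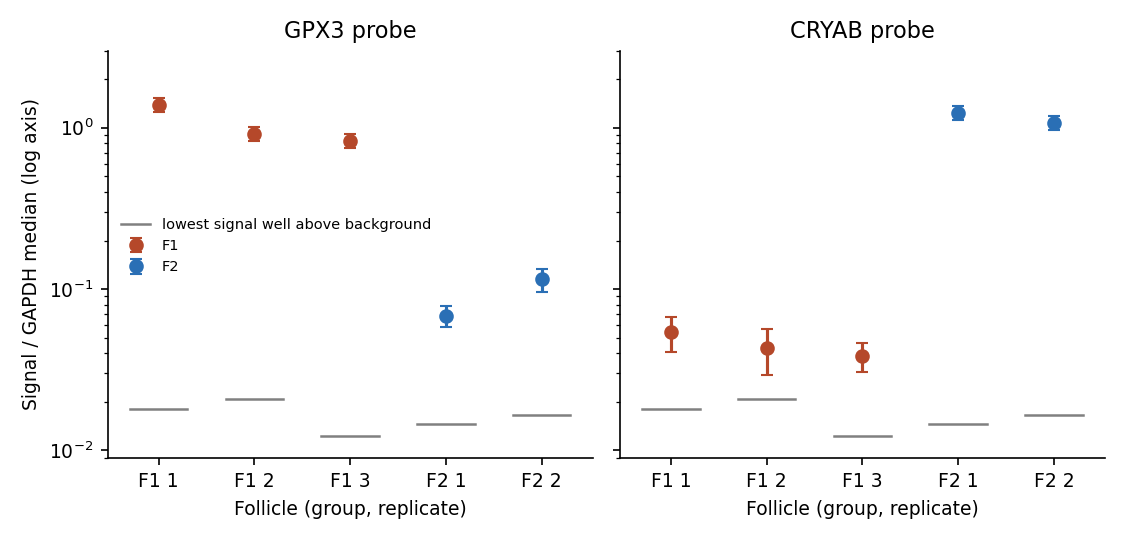
Signal of the GPX3 probe (left) and the CRYAB probe (right) relative to the GAPDH median of the array, on a log axis, in each of the 3 F1 and 2 F2. Points are single follicles, bars the scanner software's error of that spot, and grey lines the lowest signal among probes well above background on that array. GPX3 lay at 0.833 to 1.39 in F1 and 0.0680 to 0.115 in F2, and CRYAB at 0.0383 to 0.0541 in F1 and 1.07 to 1.23 in F2.

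On each of the 5 arrays both probes stood well above background, and neither was saturated or marked as an outlier. The weaker values were the less precise. GPX3 in F2 lay 4.69-fold and 6.89-fold above the weakest signal that counted as well above background on the same array, whereas CRYAB in F1 lay 2.07-fold to 3.1-fold above it. The scanner software put the error of the CRYAB spot at 24.3%, 31.6% and 20.3% of its signal in the F1 and at about 10% in the F2. For the GPX3 spot the error was about 10% in the F1 but 14.8% and 16.0% in the F2.

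The low end of each gene depends on the background that is taken away. In the F1 the CRYAB spot had a raw mean intensity of 280.2 to 286.3, a local background of 85.0 to 94.0 and a processed signal of 37.4 to 54.1. For GPX3, F2 replicates 1 and 2 had raw means of 290.2 and 315.8 and local backgrounds of 82.0 and 76.0. Their processed signals were 85.3 and 114.8. For both genes the processed signal was lower than the raw mean less the local background, so more than the local background was removed. With normexp background correction of the raw intensities, the difference of CRYAB was 8.20-fold and that of GPX3 6.0-fold. Both kept their direction.

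The order of GPX3 among follicles was F1 replicate 1, F1 replicate 2, F1 replicate 3, F2 replicate 2 and F2 replicate 1. The scanner software's errors of the spots overlapped for F1 replicates 2 and 3, while F1 replicate 1 stood above them and F2 replicate 2 above F2 replicate 1. For CRYAB the order was F2 replicate 1, F2 replicate 2, then F1 replicates 1, 2 and 3. Within F1 and within F2, the errors of the CRYAB spots overlapped.

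Within a group GPX3 varied more than CRYAB. The SD of log2 GPX3 was 0.39 among the F1 and 0.53 between the F2, and the SD of log2 CRYAB was 0.25 and 0.15. Among 4861 probes detected in this way on each of the 5 arrays, 61.6% had a lower SD than GPX3 among the F1 and 81.0% between the F2. The same shares for CRYAB were 33.1% and 26.4%. Repeated GAPDH spots within an array had an SD of 0.10 to 0.21 on the log2 scale, which is spot noise of another probe and holds no spread between follicles.

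The ratio of the GPX3 to the CRYAB signal within a follicle does not depend on the GAPDH median, because the scaling of the array cancels. Since levels of different probes cannot be set against each other, log2 of this ratio was centred on its mean over the 5 follicles. It was 3.45, 3.18 and 3.22 for replicates 1, 2 and 3 of F1, whereas replicates 1 and 2 of F2 had -5.41 and -4.45. The F1 lay within 0.27 of one another, and the F2 lay 0.96 apart. F1 and F2 differed by 8.21 on average and by no less than 7.63 between any pair of follicles.

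Over the whole array, 5528 probes had signal well above background throughout F1, throughout F2 or in both, and were tested with limma. Of these, 634 (11.5%) had an adjusted p under 0.05, 353 (6.39%) higher in F1 and 281 (5.08%) higher in F2. With scaling to the 75th percentile the larger number lay towards F2, 442 against 421. Among the 833 tested genes with a symbol, 149 (17.9%) passed. F1 and F2 did not overlap at 2719 probes (49.2%), so that separation of 3 from 2 follicles was common. Towards F1, 78 probes had a larger difference than GPX3, 21 of them genes with a symbol. Towards F2, 56 probes went further than CRYAB, 18 of them genes with a symbol. The median log2 difference of all tested probes was 0.27 with GAPDH scaling and 0.06 when arrays were scaled to the 75th percentile.

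Around GPX3, lists of antioxidant genes were drawn up that named 68 genes other than GPX3. On the array 18 of them were matched to a probe, and all 18 were well above background in all 5 follicles. GPX1, TXNRD2 and PRDX3 were higher in F1, and none passed the test towards F2. With some other settings TXN or SELENOP did pass towards F2, as given for each gene here. The share called was 16.7%, against 11.5% of all tested probes and 17.9% of genes with a symbol. Their median log2 difference was 0.38, with 10 above 0 and 8 below. The groups did not overlap for 14 of the 18, against 49.2% of all probes. At an unadjusted p under 0.05 there were 8 of the 18, against 29.2% of all tested probes. Both 49.2% and 29.2% are shares of all tested probes, and those of genes with a symbol were not computed.

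GPX1, the glutathione peroxidase of the cytosol, moved most among them. Its signal was 25.1, 19.7 and 16.5 among F1 against 1.78 and 2.38 among F2, with no overlap. That was a 9.77-fold difference (log2 3.29, SE 0.32, limma adjusted p = 0.00201). When F2 replicate 1 was left out, the difference was 3.08 on that scale and the limma adjusted p was 0.0611; without any other single follicle the adjusted p stayed between 0.00551 and 0.0305.

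The other glutathione peroxidase matched to a probe, GPX4, which acts on lipid hydroperoxides in membranes, had its values on the opposite side. It measured 1.98, 1.87 and 2.26 among F1 against 3.35 and 2.95 among F2, without overlap, and the difference of -0.63 (log2) did not pass (limma adjusted p = 0.177). SELENOP, the plasma protein that delivers selenium to tissues, was 2.85, 5.63 and 1.88 among F1 against 6.87 and 10.5 among F2. Its log2 difference of -1.45 did not pass either (limma adjusted p = 0.120), but it passed with normexp background correction (0.000105) and without F1 replicate 2 (0.0427). Thus among 5 selenoprotein genes other than GPX3, 2 rose in F1 and the median log2 difference was -0.09.

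Thioredoxin reductases return oxidised thioredoxin to its reduced form. TXNRD2, the mitochondrial enzyme, was 0.242, 0.193 and 0.146 among F1 against 0.0618 and 0.0703 among F2, a 2.87-fold difference (limma adjusted p = 0.0310). TXNRD1, its cytosolic counterpart, had a log2 difference of -0.09, whose sign turned under some settings, and overlapped between groups. PRDX3, a peroxiredoxin that removes peroxide in mitochondria, was 1.42, 1.57 and 1.27 among F1 against 0.588 and 0.70 among F2, a 2.21-fold difference (limma adjusted p = 0.0464). Both calls were near the threshold. That of PRDX3 was lost without any one of the follicles, with adjusted p of 0.0663 to 0.212, and that of TXNRD2 without any follicle but F1 replicate 3, with 0.0758 to 0.228. TXNRD2 was also lost with normexp background correction (limma adjusted p = 0.109).

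The remaining peroxide and superoxide genes did not pass with GAPDH scaling. Those with the strongest signals, PRDX1, PRDX4 and PRDX5, had log2 differences of 0.34, 0.41 and 0.48. SOD1, SOD2, PRDX6, TXN and TXN2 were added here once their values had been seen. The superoxide dismutase of the cytosol, SOD1, had a log2 difference of 0.71 and that of mitochondria, SOD2, one of -0.09 whose sign also turned. PRDX6, which also uses glutathione, had -0.79 and mitochondrial thioredoxin, TXN2, had -0.83, with F1 and F2 apart for both (limma adjusted p = 0.147 and 0.118). TXN, the cytosolic thioredoxin, had a log2 difference of -0.63 (limma adjusted p = 0.203). It passed towards F2 with scaling to the 75th percentile (0.0320) and with quantile normalization (0.0215).

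Of the genes that make glutathione or attach it to other molecules, 2 of 25 listed, GSTA2 and MGST1, had a probe under their accession. GSTA2, an alpha-class glutathione S-transferase, was 0.637, 0.183 and 0.105 among F1 against 0.0331 and 0.0347 among F2. F1 replicate 1 stood well above the other F1, and the 6.79-fold difference between groups did not pass (limma adjusted p = 0.0595). It passed in 9 of the 16 other settings, with a limma adjusted p of 0.00123 to 0.0477 in these, normexp and both alternative floors among them. MGST1, a membrane-bound transferase, had a log2 difference of 0.95 (limma adjusted p = 0.111). GCLC and GSTA3, which are in the study's own gene lists, were not matched to a probe and are not analysed here, so the counts say nothing about them.

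**Figure D2:**
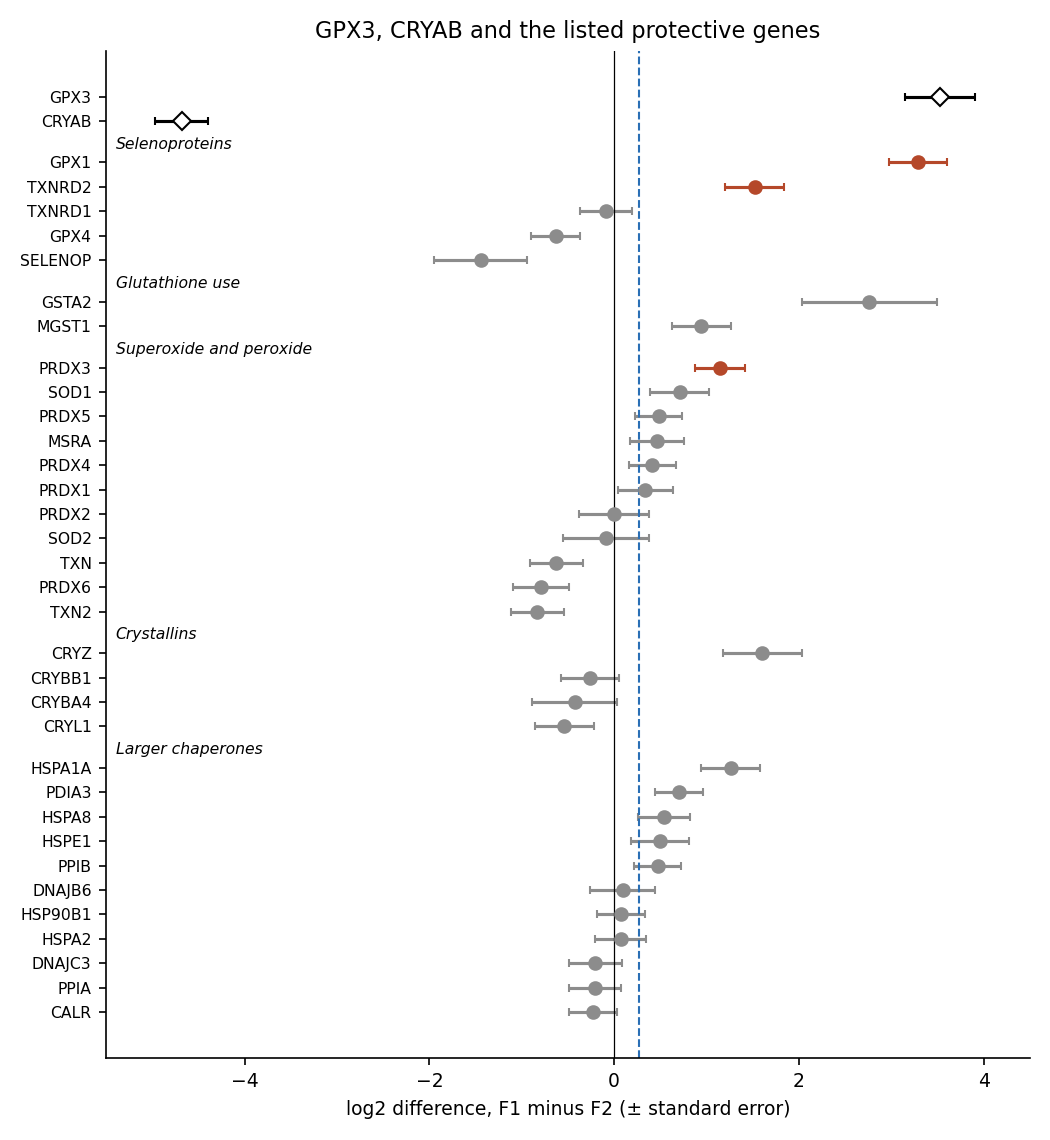
Log2 difference, F1 minus F2, with its standard error for GPX3 and CRYAB (open diamonds, no test) and for the 18 antioxidant and 15 chaperone genes tested, by list. Red points had a limma adjusted p under 0.05 and grey points did not; the dashed line is the median of all tested probes, 0.27. GPX3 lies at 3.53 with GPX1 at 3.29 next to it, and CRYAB at -4.68 has no listed gene near it.

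Around CRYAB, the lists of small heat shock proteins, crystallins and larger chaperones named 65 other genes. On the array 22 were matched to a probe and 15 were tested. None passed the test of limma in either direction, against 11.5% of all tested probes and 17.9% of genes with a symbol. Of the 15, 3 had an unadjusted p under 0.05 by limma, all of them higher in F1. In that direction 18.7% of all tested probes did. Under other settings of the processing 0 to 2 of these genes passed. The median log2 difference was 0.07, with 9 above 0 and 6 below, and 7 of 15 did not overlap between F1 and F2, against 49.2% of all probes.

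No other small heat shock protein of the kind CRYAB belongs to could be followed in the follicles. CRYAA, the alpha-crystallin that joins CRYAB in the lens, was not well above background in any follicle, and this was also so for CRYBA2, CRYBB3 and CRYGD, lens crystallins of the beta and gamma families. Of the 11 crystallin and small heat shock protein genes matched to a probe, 4 were tested. CRYL1 and CRYZ are enzymes that share the crystallin name because some lenses store them. CRYL1 had a log2 difference of -0.54, CRYBB1 of -0.26 and CRYBA4 of -0.43, none of which passed (limma adjusted p = 0.307, 0.611 and 0.568). CRYZ, a quinone oxidoreductase, was 0.144, 0.166 and 0.175 among F1 against 0.0337 and 0.0836 among F2, a log2 difference of 1.60 (limma adjusted p = 0.0614), and it passed in 7 of the 16 other settings (0.0224 to 0.0485).

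The abundant chaperones differed little. HSPA8, the constitutive HSP70 of the cytosol, was saturated on 1 array and had a log2 difference of 0.54. HSP90B1 and CALR, which fold proteins in the endoplasmic reticulum, had 0.07 and -0.23; the sign of HSP90B1 turned under some settings of the processing. HSPA1A, the HSP70 that heat and other stress induce, is named after its values were seen. It was 1.97, 1.56 and 1.78 among F1 against 0.574 and 0.941 among F2, a 2.40-fold difference (limma adjusted p = 0.0559). HSPA1A passed in 7 of the 16 other settings, with scaling to the 75th percentile among them (limma adjusted p = 0.0486).

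The genes with the profile most like that of each member were sought among 733 genes with a symbol that were well above background in all 5 follicles. Likeness was the root mean square difference, on the log2 scale, between profiles centred on their own means. With 5 follicles in 2 groups, it mostly reflects the size of the step between F1 and F2 and is a description only. GPX3 and CRYAB were 4.04 apart on this measure.

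VCAN, which encodes the matrix proteoglycan versican, was nearest to GPX3 at 0.16. Its signal was 4.08, 2.41 and 2.49 among F1 against 0.236 and 0.409 among F2, so that F1 replicate 1 was the highest and F2 replicate 1 the lowest, as for GPX3. GPX1 came next at 0.18 and followed the same order of follicles. CYB5A, an electron donor to lipid and steroid enzymes, was at 0.34, the transcriptional coregulator CITED1 at 0.36 and the sialyltransferase ST3GAL4 at 0.40. ST3GAL4 was saturated on 3 arrays.

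TIMP1, an inhibitor of matrix metalloproteinases, was nearest to CRYAB at 0.41. Its signal was 0.533, 0.675 and 0.542 among F1 against 14.3 and 7.52 among F2, higher in F2 replicate 1, as CRYAB was. The fatty acid carrier FABP5 was at 0.63, the adhesion receptor SELP of platelets and endothelium at 0.65, the G-protein subunit GNG2 at 0.77 and the prostaglandin E synthase PTGES at 0.81. All 5 neighbours of CRYAB were farther from it than any neighbour of GPX3 from GPX3.

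**Figure D3:**
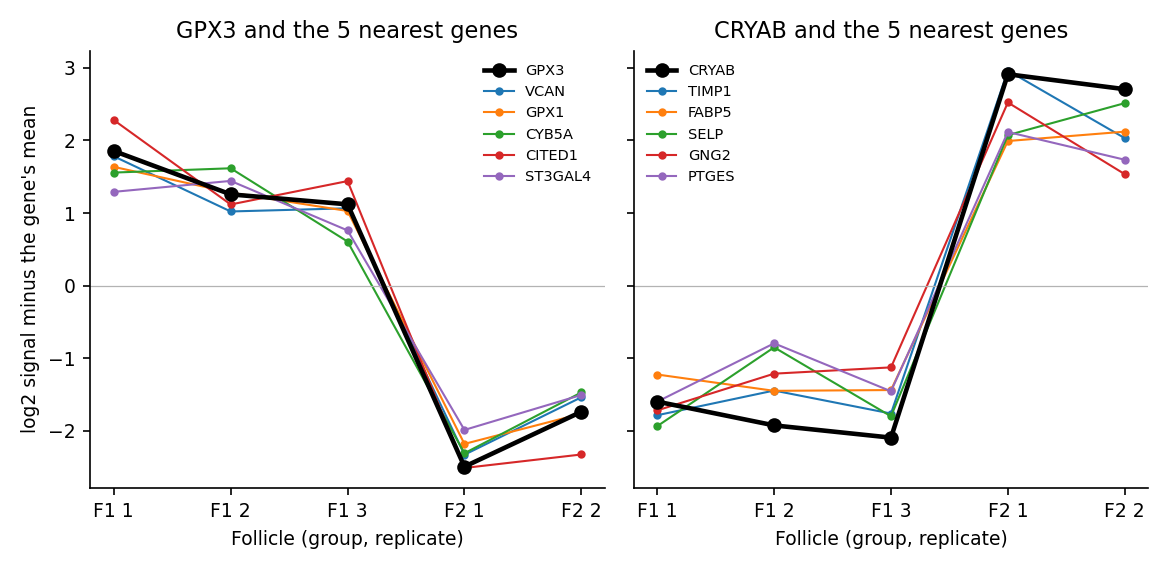
Log2 signal minus the gene's own mean over the 5 follicles, for GPX3 (left) and CRYAB (right) in black and for the 5 genes nearest to each in colour. Lines only join the points of a gene. GPX3, VCAN and GPX1 run close together (0.16 and 0.18 apart from GPX3), whereas the genes nearest to CRYAB lie 0.41 to 0.81 from it.

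Markers of cell types also differed between F1 and F2. Over the whole array, 6.39% of tested probes passed towards F1 and 5.08% towards F2. Of tested genes with a symbol, 17.9% passed in either direction. All 6 granulosa markers matched to a probe, of 7 listed, were higher in F1. Their summed signal was 172.7 to 237.1 among F1 against 6.84 to 6.86 among F2, most of it from INHA, INHBA and FST. Such sums, here and for the other cell types, are led by the brightest probes. They do not measure the amount of a cell type. The listed marker HSD17B1, which is in the study's own gene lists, was not matched to a probe. Some of the granulosa markers were saturated in the F1. FSHR, the receptor that defines granulosa cells, did not rise well above background in the F2. Of 6 genes listed as theca interna markers, 3 passed the test towards F1 (CYP17A1, INSL3 and LHCGR), and 5 had a difference above 0. STAR lay the other way with a log2 difference of -1.48 (limma adjusted p = 0.0593). LHCGR does not mark theca alone, since the study's introduction places raised LH receptor expression in granulosa cells of dominant follicles. LHCGR was at the floor of 0.001 in both F2 and at 0.0329 to 0.0352 in the F1. The size of its difference thus rests on the floor. It fell from 5.08 (log2) to 1.12 with the floor at the lowest signal well above background (limma adjusted p = 0.0308). With normexp it was 0.56 and did not pass (limma adjusted p = 0.289). The theca sums were 69.3 to 105.2 among F1 against 30.1 to 33.3 among F2, with INSL3 the largest part of them in F1 and saturated on 2 arrays.

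Some markers of other cells passed the test towards F2, the side of CRYAB, as 5.08% of all tested probes did. In the smooth muscle and stroma list, 2 of 4 measured genes, CALD1 and LUM, were higher in F2, with sums of 5.79 to 9.59 among F1 against 10.5 to 17.5 among F2; both calls, and that of SELP, were lost without either F2 replicate (limma adjusted p of 0.0636 to 0.206). DCN made up most of the smooth muscle and stroma sums and overlapped between groups (log2 difference -0.79, limma adjusted p = 0.278). COL1A2 lay the other way at 0.16 and also overlapped (limma adjusted p = 0.752). Of 4 endothelial genes tested, SELP alone passed, towards F2. It made up most of the F2 sum (0.156 to 0.251 among F1 against 0.764 to 1.11 among F2), while PECAM1, TEK and TIE1 did not pass and CDH5 was not above background anywhere. Of 3 leukocyte genes, CD14 was higher in F2 (limma adjusted p = 0.0208, but 0.188 with normexp). CD3E was above background in the F2 alone, so that its call rests on the floor (limma adjusted p = 0.00526, but 0.170 with the floor at the lowest signal well above background). The leukocyte sums were 0.866 to 0.940 among F1 against 1.30 to 1.60 among F2. Most of each sum was ITGB2, whose log2 difference of -0.57 did not pass (limma adjusted p = 0.217). HBB, the globin of red blood cells, was at the floor in all 5 follicles. The part of these cell types in the GPX3 and CRYAB results was not tested.

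The difference of both members held its direction under all 16 other settings of the processing that were tried. GPX3 ranged from 2.59 to 3.91 and CRYAB from -4.89 to -3.04 on the log2 scale, and the value nearest to 0 came from normexp background correction for both. Leaving out F2 replicate 1 gave 3.15 for GPX3 and leaving out F2 replicate 2 gave 3.91.

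**Figure D4:**
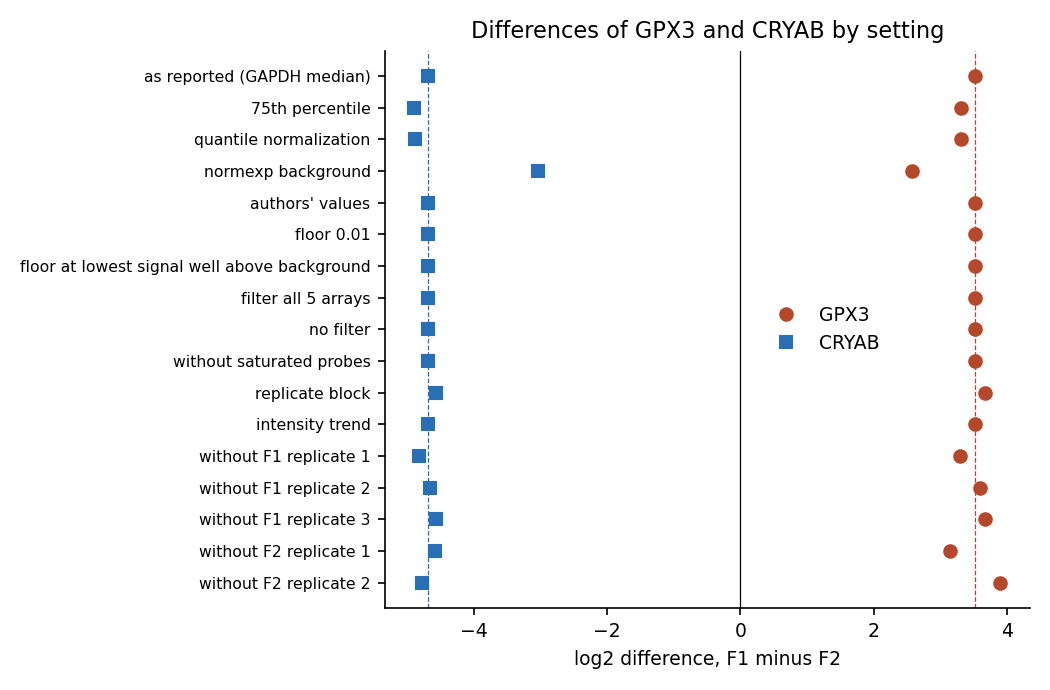
Log2 difference, F1 minus F2, of GPX3 (circles) and CRYAB (squares) as reported and under 16 other settings, including each follicle left out in turn. Dashed lines mark the values as reported, 3.53 and -4.68; with normexp background correction they were 2.59 and -3.04.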

How the data were processed

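The authors scanned 5 one-color Agilent arrays, 1 follicle each, with Feature Extraction (version 9.5.3.1 per the file headers), and deposited several values for each spot. Those used here were its intensity after background subtraction (processed signal) with the software's error, its raw intensity and its local background, with quality flags. A table the authors deposited gives each processed signal as a ratio to the GAPDH median, which equalled the values used here for both genes to 3 decimals.

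Processed signals were divided by the median of the 100 GAPDH spots, raised to at least 0.001 and taken to log2. Controls, GAPDH spots and 1 outlier-flagged probe were left out; saturated spots stayed in. The 3 F1 and 2 F2 entered a linear model (limma 3.58.1, functions lmFit and eBayes; R 4.3.3), and p-values were adjusted by Benjamini-Hochberg over 5528 probes with a threshold of 0.05. Each follicle was a separate sample, though some shared a cow, and the number of arrays limits the precision; an exact permutation test of 3 against 2 cannot go below 0.1. Of 1415 RefSeq accessions, 1364 were named through a RefSeq gene table (ARS-UCD2.0, names and gene order only). Profiles and lists were summarised in Python 3.11.15. The fit was tested on simulated data with 200 changed probes among 5528. It recovered 4%, 50%, 80% and 92% of changes of log2 1, 2, 3 and 4, with 6 false calls. A gene with a difference near 1 that did not pass may therefore still differ.

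The members and gene lists were chosen with earlier results of these data known. The text names both members, every listed antioxidant, chaperone or regulator gene that passed, up to 3 further genes per list with the strongest signal, and the 5 nearest profiles per member. A gene that this rule covers is not reported here. Alternatives were other scalings, background correction, floors, filters, the authors' values, a replicate block, an intensity trend and each follicle left out.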

Additional observations from a re-analysis of the deposited data

How the results depend on the processing

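The log2 differences of GPX3 and CRYAB and that of their ratio (the GPX3 minus CRYAB log2 difference) kept their direction under all 16 alternatives. With normexp background correction they were 2.59, -3.04 and 5.62; its offset and its smaller background subtraction compress weak signals by construction. Leaving out each follicle in turn gave 3.15 to 3.91 for GPX3, -4.82 to -4.57 for CRYAB and 7.73 to 8.69 for the ratio. The number of probes called, 634, fell to 214 without the filter on weak probes, which tests more probes, and lay between 160 and 550 with 1 follicle left out (160 without F2 replicate 1, 200 without F2 replicate 2 and 344 without F1 replicate 1). It rose to 863 with the 75th percentile, 903 with quantile normalization and 887 to 894 with other floors or the intensity trend. The number of antioxidant genes called, 3, was 1 (GPX1) without the filter, 4 in 8 settings, which added TXN, GSTA2 or SELENOP, and 0 to 3 with a follicle left out, where the 3 were GPX1, TXNRD2 and GSTA2. The chaperone count of 0 became 1 with the 75th percentile or normexp (HSPA1A in both) and 2 with quantile normalization (CRYL1 and CRYZ), the authors' values, a floor of 0.01, a floor at the lowest signal well above background, the filter on all 5 arrays or the intensity trend. It was 0 to 1 with a follicle left out (CRYZ without F2 replicate 2). The cause of these changes was not tested. With a replicate block, GPX3 was 3.67, CRYAB -4.57, 578 probes were called, and the antioxidant genes called were GPX1, TXNRD2 and GSTA2. Deviations of same-numbered follicles correlated at 0.039 and 0.13, and the numbers are not known to pair follicles. Genes with differences near 0, such as PRDX2, SOD2, TXNRD1, HSP90B1 and FTH1, changed sign in some settings.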

Other observations

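Of 20 listed regulators and targets of stress responses, 4 were matched to a probe. HIF1A, the transcription factor subunit that is stabilised when oxygen is low, was 2.61, 2.10 and 3.21 among F1 against 0.277 and 0.496 among F2, a 7.02-fold difference (log2 2.81, SE 0.37, limma adjusted p = 0.00627). The groups did not overlap. Without F2 replicate 1 the log2 difference was 2.39 and the limma adjusted p 0.0951, and without the filter on weak probes the adjusted p was 0.0710. The iron-storage subunit FTL had its values on the other side, at 9.07, 11.0 and 6.79 among F1 against 19.4 and 16.1 among F2 (log2 -1.01, limma adjusted p = 0.0934). FTL passed with the 75th percentile (0.0360), quantile normalization (0.0269), normexp (0.0135) and the intensity trend (0.0385), all by limma adjusted p. FTH1, the other ferritin subunit, was saturated on 3 arrays and overlapped between groups.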
